A study of Mus musculus with 6 samples.

Results

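The baseline microRNA (miRNA) repertoire of primary mouse dermal fibroblasts was described from the 3 control libraries of a 6-library series. The members were taken by label: every one of the 1907 miRNA names in the count column of the libraries labelled control 1, 2 and 3. The control cells had the genotype Col1a2Cre-wt, which means that they carried a Cre recombinase under a promoter named for Col1a2, a collagen gene of fibroblasts, and no constitutively active Nrf2. They came from newborn skin on a mixed background of 50% C57Bl/6 and 50% FVB/N. The cells were at passage 1 and had grown in culture for 6 days. By the series design each control library came from a different mouse. Because all 3 libraries carry Cre and come from cells grown in culture, the levels describe cultured Cre-positive cells and not fibroblasts in skin. Libraries of the other genotype were not used, and no groups were compared.

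A miRNA is cut from a hairpin precursor (a stem) as a short duplex, and a strand from either arm, 5p or 3p, can be loaded into an Argonaute protein. The loaded strand finds messenger RNAs mainly through its seed, bases 2 to 8 from the 5′ end, so miRNAs with the same seed form a family with overlapping predicted targets. In skin, several miRNAs separate cell types: the miR-200 family, miR-203 and miR-205 are known from keratinocytes, and miR-199a, miR-214, miR-143 and miR-145a from cells of mesenchymal origin.

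The libraries held 10443268, 16446668 and 20595024 counts. A level is given below as CPM, the count scaled to 1000000 counts of the library, as the mean ± SD over the 3 libraries, and no length scaling was needed because a read stands for a whole mature miRNA. A count was present for 1050, 1124 and 1142 of the 1907 names, for 933 in all 3 libraries, and for none of the libraries in 624. A value of 3 counts, taken as the floor of detection, corresponded to 0.287, 0.182 and 0.146 CPM. Such floors cover counting error only.

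The mature sequences of the most abundant miRNAs are shown first, because the seed decides the families described below. They come from RefSeq for the mouse assembly GRCm38.p6, in which 1623 of the 1907 names were found, holding 88.3%, 88.0% and 88.9% of the counts of controls 1 to 3. Capitals mark the seed. The first set holds the leading member of each of the 8 largest families among names with a sequence. miR-143-3p had no sequence there and is not shown.
miR-22-3p: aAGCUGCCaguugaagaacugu
let-7i-5p: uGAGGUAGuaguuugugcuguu
miR-21a-5p: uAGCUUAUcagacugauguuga
miR-10b-5p: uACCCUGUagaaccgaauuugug
miR-199a-3p: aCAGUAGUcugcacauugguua
miR-26a-5p: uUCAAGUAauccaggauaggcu
miR-27b-3p: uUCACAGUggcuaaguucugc
miR-127-3p: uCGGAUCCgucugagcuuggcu

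The second set shows further members with the same seeds. Outside the capitals they differ from the leading member at a few bases, or, for miR-199b-3p, at none.
let-7f-5p: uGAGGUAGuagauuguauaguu
let-7c-5p: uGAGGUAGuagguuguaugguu
let-7d-5p: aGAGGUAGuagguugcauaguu
miR-10a-5p: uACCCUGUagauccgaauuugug
miR-199b-3p: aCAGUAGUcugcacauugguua
miR-27a-3p: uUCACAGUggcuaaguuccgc

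The repertoire was steep. The 2 names above 100000 CPM held 28.4% ± 0.38 of the counts, and the 18 names above 10000 CPM held 73.3% ± 0.32. The 7 most abundant names reached 50% of the counts, 48 reached 90% and 172 reached 99%. Of all 1907 names, 368 had a mean of at least 10 CPM, and they held 99.9% of the counts. The 5 most abundant held 46.8%, 45.8% and 45.8% in controls 1 to 3, a mean of 46.1% ± 0.57.

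miR-22-3p was first in every library, with 177999, 175247 and 176845 CPM, and its share of 17.7% ± 0.14 was among the least variable values in the data. Its precursor Mir22 lies on chr11:75463716-75463810 (mm10, plus strand), in an exon of the host transcript Mir22hg that also falls within an exon of Tlcd2 as annotated. miR-21a-5p, a miRNA widely studied in fibrosis, was second, with 109334, 104661 and 108473 CPM. Mir21a lies on chr11:86584067-86584158 (minus strand), within an annotated exon of Vmp1. The levels of these 2 miRNAs did not overlap: miR-22-3p was 1.64 ± 0.03 times as high as miR-21a-5p (n = 3). miR-143-3p, known from smooth muscle and other mesenchymal cells, came next, with 86436, 87436 and 77068 CPM, lowest in control 3.

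The next pair could not be separated. let-7i-5p, of the family that Lin28 holds back in early embryonic cells, had 47123, 46467 and 48010 CPM. miR-10b-5p, which comes from the HoxD cluster, had 47107, 44486 and 47735 CPM. let-7i-5p was the higher in all 3 libraries, but the means of 47199.9 ± 774 and 46443 ± 1723 CPM lie within an SD of each other, and the ranges overlap. Mirlet7i was annotated on chr10:122985640-122985724 (minus strand), in an exon of the pseudogene transcript D630033A02Rik, and Mir10b on chr2:74726070-74726137 (plus strand), in introns of Hoxd3 and Hoxd4.

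miR-199a-3p, which is cut from precursors on 2 chromosomes, followed with 32553, 32615 and 36938 CPM, highest in control 3. Mir199a-2 is on chr1:162217814-162217923, in an exon of the noncoding transcript Dnm3os, and Mir199a-1 on chr9:21496495-21496564. The order of ranks 7 to 10 changed between libraries. miR-127-3p, from the imprinted Dlk1 to Dio3 region, had 26191, 32606 and 33784 CPM and stood at rank 10 in control 1 and at rank 7 in the others. miR-26a-5p, from introns and exons of the small phosphatase genes Ctdspl and Ctdsp2, had 28698, 27304 and 32248 CPM, highest in control 3. let-7f-5p had 32188, 28219 and 27051 CPM and miR-27b-3p 31199, 26174 and 26205 CPM, and both were highest in control 1. These 4 miRNAs as a set therefore have no fixed order, although let-7f-5p was above miR-27b-3p in all 3 libraries. Ranks 1 to 6, 11 and 12 were held by the same miRNA in every library, the last of them being miR-199b-3p with 22894 ± 1749 CPM and miR-92a-3p, a member of the miR-17 to miR-92 group, with 18027 ± 1077 CPM.

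**Figure D1:**
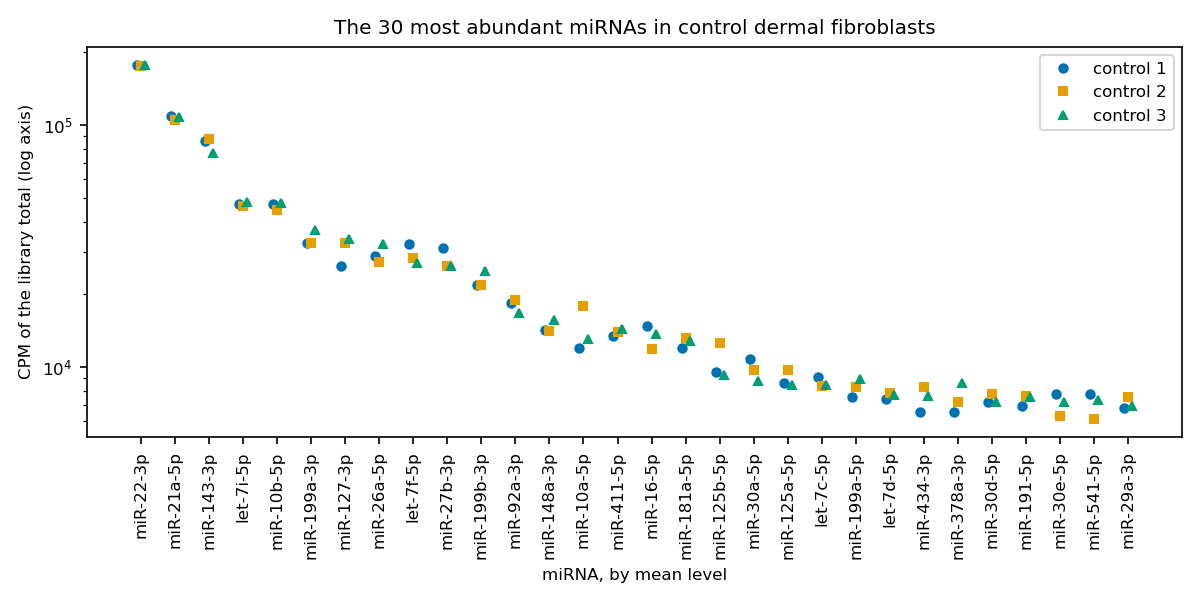
Levels of the 30 most abundant miRNAs in each control library, in CPM on a log axis, ordered by their mean; each point is 1 library. The 3 points of miR-22-3p lie together at 175247 to 177999 CPM, while those of miR-127-3p, miR-10a-5p and miR-125b-5p are visibly apart.

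The lower ranks of the leading 30 lay closer together. miR-148a-3p had 14244, 14123 and 15673 CPM, miR-411-5p 13469, 14003 and 14438 CPM, and miR-16-5p, known for acting on cell cycle genes, 14801, 11889 and 13673 CPM. The ranges of miR-148a-3p, miR-411-5p and miR-16-5p overlap, and miR-16-5p changed its place among them, while miR-148a-3p was above miR-411-5p in all 3 libraries. miR-10a-5p, from the HoxB cluster, had 12028, 17887 and 13023 CPM and was high in control 2 alone. miR-181a-5p had 12639 ± 619 CPM, miR-125b-5p 10458 ± 1826, miR-30a-5p 9753 ± 994, miR-125a-5p 8930.0 ± 726, let-7c-5p 8658 ± 421 and miR-199a-5p 8238 ± 696 CPM. let-7d-5p, miR-434-3p, miR-378a-3p, miR-30d-5p, miR-191-5p, miR-30e-5p, miR-541-5p and miR-29a-3p filled ranks 23 to 30, with means between 7062 and 7634 CPM, and their ranges overlapped. miR-29a-3p, the last of these, is known for targeting collagen messages.

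When names were grouped by seed, 260 seeds were present among the names with a sequence and at least 10 CPM, and 42 of these seeds were shared by several names (110 names in all). The 5 largest families held 51.0% ± 0.58 of the counts and the 15 largest 73.6% ± 0.73. These were also the 15 families above 1%. Names without a sequence, miR-143-3p with its 8.36% ± 0.57 among them, are in the total but in no family.

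The families were of different kinds. miR-22-3p and miR-127-3p, the latter with 3.09% ± 0.41 of the counts, were the only names with a sequence that carried their seeds, and miR-21a-5p shared its seed only with miR-21c, which had under 1 CPM, so that 10.7% ± 0.25 of the counts rested on miR-21a-5p. The let-7 seed was carried by 11 names, of which 9 had at least 10 CPM. Together they held 11.2%, 10.7% and 10.6% of the counts, highest in control 1, a mean of 10.8% ± 0.34 that does not separate from that of miR-21a. Within the let-7 family, let-7i-5p made up 43.6% and let-7f-5p 26.9%. let-7c-5p added 7.99% and let-7d-5p 7.04%. let-7f-5p, let-7c-5p and let-7a-5p have 2 precursors each. How reads that match several precursors were counted is not given, and these shares carry that limit. The remaining members above 10 CPM were let-7a-5p with 6969 ± 346 CPM, let-7e-5p with 3004 ± 218, let-7g-5p with 2980.1 ± 66.8, let-7b-5p with 1677 ± 163 and miR-98-5p with 1105 ± 96.7 CPM, whereas let-7k and miR-1961 were at or under the floor of detection. let-7e-5p and let-7g-5p did not differ beyond their spread.

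The miR-10 seed held 6.08% ± 0.16, and miR-10b-5p made up 76.4% of it. The 2 members did not keep a fixed ratio: miR-10b-5p was 3.92, 2.49 and 3.67 times as high as miR-10a-5p in controls 1 to 3, lowest in control 2, where miR-10a-5p was highest. The miR-199-3p seed held 5.44%, 5.45% and 6.19%, highest in control 3. miR-199a-3p and miR-199b-3p have identical mature sequences, as printed above, yet were listed with different counts, in a ratio of 1.49, 1.49 and 1.48. Reads of identical sequences cannot be assigned to a precursor by sequence, and how such reads were divided is not given in the sources used here. The separate levels of these names therefore carry that limit. Their sum was 56929 CPM, above let-7i-5p.

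In most of the other families a single member was dominant. In the miR-26 family (3.20% ± 0.27) miR-26a-5p made up 91.8%, with miR-26b-5p at 2627 ± 381 CPM. In the miR-27 family (3.18% ± 0.31) miR-27b-3p made up 87.7%. In the family of miR-92a-3p (2.09% ± 0.12) that miRNA made up 86.2%, while miR-25-3p reached 2592 ± 73.8 CPM and miR-92b-3p 281 ± 29.4 CPM. miR-148a-3p made up 92.3% of the family it forms with miR-148b-3p and miR-152-3p (1.59% ± 0.09). miR-16-5p made up 75.8% and miR-322-5p 17.1% of the miR-16 family (1.78% ± 0.17), in which miR-15a-5p had 626 ± 37.1 and miR-15b-5p 496 ± 33.1 CPM. In the miR-181 family (1.74% ± 0.04), miR-181a-5p made up 72.6% and miR-181b-5p 21.2%, followed by miR-181c-5p with 840.2 ± 10.4 and miR-181d-5p with 232 ± 7.91 CPM. miR-411-5p (1.40% ± 0.05) was alone above 10 CPM with its seed.

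The family of miR-125 was the most even, with 3 members of similar level. miR-125b-5p made up 40.2%, miR-125a-5p 34.3% and miR-351-5p 25.5% of its 2.60% ± 0.28. miR-351-5p comes from the X chromosome, in a group with miR-322. All 3 were highest in control 2, at 12558, 9766 and 6948 CPM. The sequences show how the members differ after a common seed.
miR-125b-5p: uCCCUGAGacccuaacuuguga
miR-125a-5p: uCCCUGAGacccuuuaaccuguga
miR-351-5p: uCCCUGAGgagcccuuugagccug
The miR-30 seed held 1.88% ± 0.15 over miR-30a-5p, miR-30e-5p and miR-30c-5p, which made up 52.0%, 37.7% and 10.4%. With miR-30b-5p and miR-30d-5p added by name the sum was 2.68% ± 0.14.

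**Figure D2:**
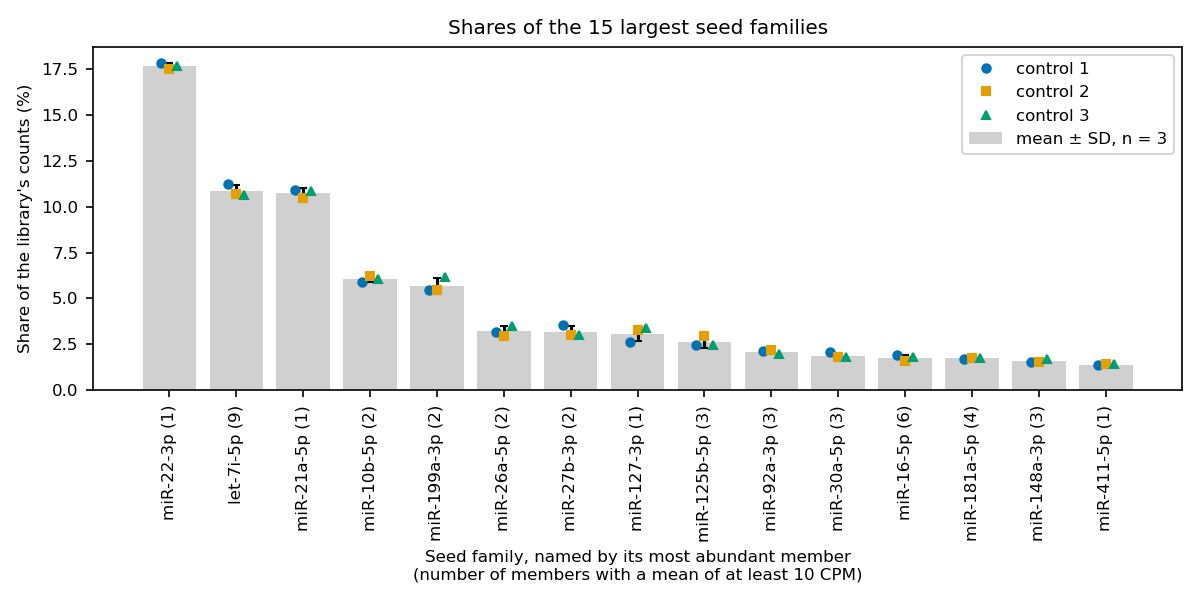
Share of each library's counts in the 15 largest seed families, named by their most abundant member, with the number of members of at least 10 CPM in brackets; bars are means, error bars SD over 3 libraries, and points single libraries. miR-22-3p stands at 17.7%, the let-7 and miR-21a families stand close together at 10.8% and 10.7%, and all other families drawn are under 7%. Names without a sequence are in no family, and miR-143-3p, with 8.36% of the counts, is among them.

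Weighted by counts, the first base differed from that of the list as a whole. Of all 1623 names with a sequence, U led 40.2% and G 13.1%. U stood at the first position in 59.1% ± 0.35 of the counts with a sequence, A in 34.4% ± 0.29, C in 4.99% ± 0.09 and G in 1.54% ± 0.10. When each of the names of at least 10 CPM was counted once, U led 39.9% (131 names) and G 9.15% (30 names). Among the 537 names with a sequence and no count in any library, U led 40.6% and G 16.2%. The share of U by counts therefore comes from which names are abundant: of the 8 sequences in the first set, all but miR-22-3p and miR-199a-3p begin with u. By length, 74.3% ± 0.32 of the counts were in mature sequences of 22 bases, 12.7% in those of 23 and 9.55% in those of 21, by the RefSeq sequence of the name and not by the length of the reads. The GC content weighted by counts was 44.7% ± 0.19. The median over names, an unlike measure, was 47.8% for names of at least 10 CPM and 52.4% for names without a count.

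Both arms of a stem were listed for 776 stems, and 357 had at least 10 counts over both arms in each library. The 5p arm was the higher in all 3 libraries for 172 stems and the 3p arm for 170, and the higher arm differed between libraries for 15. An arm that several precursors can give was present in 38 of the 357 stems, miR-24, miR-26a, miR-103 and miR-125b among them. Without these stems the 5p arm was the higher for 147 and the 3p arm for 157, so neither side clearly led. The median share of the higher (major) arm was 96.4%. It was over 90% for 240 stems, over 99% for 113 and under 75% for 58. Among the 72 stems of at least 1000 CPM, 42 had a higher 5p arm and 30 a higher 3p arm, none changed between libraries, and the median share of the major arm was 98.7%. Summed over the stems, the counts were nearly even, with 49.0% ± 0.31 of all counts on 5p arms and 50.8% ± 0.30 on 3p arms.

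Among stems of at least 1000 CPM, the most one-sided with a higher 5p arm were miR-298, miR-541, miR-10b, miR-26a and let-7i. miR-298-5p, whose stem lies in the imprinted Gnas region, had 41543, 78825 and 93718 counts against 15, 23 and 26 for miR-298-3p, a log2 ratio of 11.63 ± 0.21. miR-541 (log2 ratio 10.87 ± 0.26), miR-10b (10.49 ± 0.18), miR-26a (10.24 ± 0.34) followed, and their 3p arms stood at 3.73, 32.5 and 24.6 CPM. let-7i held 99.9% of its counts on the 5p arm, with 46.2 ± 4.11 CPM on the 3p arm. At the same level the most one-sided with a higher 3p arm were miR-103, miR-23a, miR-22, miR-143 and miR-381. The 5p arms of miR-103 together had 1, 6 and 3 counts against 18611, 29446 and 37502 for miR-103-3p. The log2 ratios of 5p to 3p were -11.45 ± 0.19 for miR-23a, -11.28 ± 0.14 for miR-22, -10.59 ± 0.09 for miR-143 and -10.59 ± 0.13 for miR-381. miR-22-5p, the other strand of the most abundant miRNA, had 76.8, 73.1 and 63.6 CPM, lowest in control 3.

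Among stems of at least 1000 CPM, the 8 with the most even arms ranged from 1.33-fold between the arms of miR-423 to 3.45-fold between those of miR-322. miR-423 came first, with 3090, 3594 and 3232 CPM on the 5p arm and 2410, 2580 and 2441 CPM on the 3p arm, so that the ranges did not overlap and the 5p arm held 57.1% ± 1.03. miR-24 (60.7% ± 4.61 on 5p, its 2 5p names summed), miR-872 (62.1% ± 1.91), miR-125b (71.2%, 72.3% and 72.3% in controls 1 to 3) and miR-322 (77.5% ± 2.22) also had a higher 5p arm. miR-24-3p and miR-125b-5p can come from several precursors. How such reads were counted is not given, and the balances of miR-24 and miR-125b carry that limit. miR-151 (61.4% ± 1.34 on 3p), miR-214 (68.4% ± 0.60) and miR-434 (71.5% ± 0.03) had a higher 3p arm. The balance of miR-434 was the steadiest: the levels of its arms varied between 2599 and 3297 CPM on 5p and between 6527 and 8288 CPM on 3p, while the 5p arm held 28.5% in each of controls 1, 2 and 3. The arms of these stems carry different seeds, as the sequences of 3 of them show.
miR-423-5p: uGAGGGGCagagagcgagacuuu
miR-423-3p: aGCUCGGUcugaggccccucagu
miR-434-5p: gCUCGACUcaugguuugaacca
miR-434-3p: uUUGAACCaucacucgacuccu
miR-214-5p: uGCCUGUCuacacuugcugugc
miR-214-3p: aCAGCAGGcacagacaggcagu

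**Figure D3:**
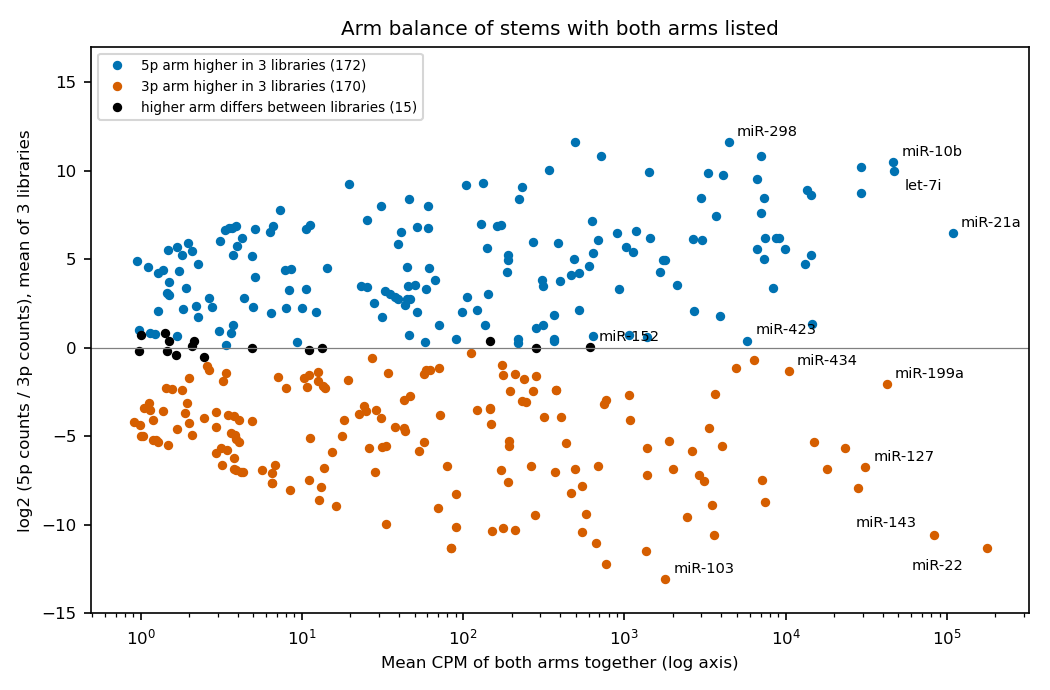
Arm balance of the 357 stems with at least 10 counts over both arms in every library, as the mean log2 ratio of 5p to 3p counts (0.5 added to each), against the mean CPM of both arms on a log axis; each point is a stem. Points above 0 have a higher 5p arm and points below 0 a higher 3p arm, and stems on both sides reach beyond 10 log2 units.

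Among stems of at least 100 CPM, the 3 whose higher arm changed between libraries were miR-152, miR-335 and miR-34b. miR-152 had 292, 336 and 299 CPM on 5p and 301, 305 and 304 CPM on 3p, and was the higher on 5p in control 2 alone. miR-335 had 152, 115 and 157 CPM on 5p and 172, 106 and 150 CPM on 3p. miR-34b, a stem known as a p53 target, had 99.1, 69.5 and 83.5 CPM on 5p and 59.6, 71.2 and 57.4 CPM on 3p. For miR-152 and miR-335 the mean log2 ratio of the arms was smaller than its SD (0.03 ± 0.10 and 0.00 ± 0.16). For miR-34b it was 0.41 ± 0.40, with the 5p arm higher in controls 1 and 3.

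Where both arms had a sequence (248 stems with a steady major arm), U was the first base of 53.6% of the major arms (133) and of 22.2% of the minor arms (55). G was first in 7.66% of the major and 19.8% of the minor arms. U stood only on the major arm in 103 stems and only on the minor arm in 25. U began 69 of 121 major arms on the 5p side and 64 of 127 on the 3p side. The stem of miR-22 was a counterexample in its bases, since miR-22-3p and miR-22-5p both begin with a.

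The spread between libraries was small and larger than counting alone would give. Over the 368 miRNAs of at least 10 CPM the median coefficient of variation (CV, the SD as a percent of the mean) was 8.57%, against 2.33% from counting. The CV was 3.19% at the 10th percentile and 19.3% at the 90th. Its median was 10.4% between 10 and 100 CPM, 7.64% between 100 and 1000 CPM and 7.27% above, where counting accounts for 0.415%. In pairs of libraries the median difference was 0.16 log2 units between controls 1 and 2 and 0.14 in both other pairs, and 4, 2 and 1 miRNAs differed by more than 2-fold. Pearson's r of log2 CPM across these miRNAs, which are not independent replicates, was 0.986 for controls 1 and 2, 0.985 for 1 and 3 and 0.997 for 2 and 3. The library farthest from the median was control 1 for 133 miRNAs, control 2 for 138 and control 3 for 97.

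Among miRNAs of at least 100 CPM the least variable were miR-676-3p (673, 666 and 673 CPM), miR-152-3p, miR-22-3p, miR-30d-3p (100.3, 102 and 99.9 CPM) and miR-450a-5p (162, 160 and 163 CPM), with CVs of 0.567% to 1.10%. Of these, miR-22-3p alone had a CV above the one from counting. At the other end stood miR-205-5p with a CV of 33.0% and miR-100-5p with 32.0%. miR-205-5p had 1380, 752 and 883 CPM, highest in control 1. miR-100-5p had 1269, 1488 and 758 CPM, lowest in control 3. The others of the 10 most variable had CVs from 19.0% to 23.8%. Of these, miR-335-3p, miR-29b-3p (232, 149 and 183 CPM), miR-203-3p (232, 157 and 179 CPM), miR-20a-5p (168, 119 and 127 CPM) and miR-21a-3p (1392, 935 and 1335 CPM) were highest in control 1, and miR-378c and miR-196b-5p in control 3. miR-10a-5p was highest in control 2.

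**Figure D4:**
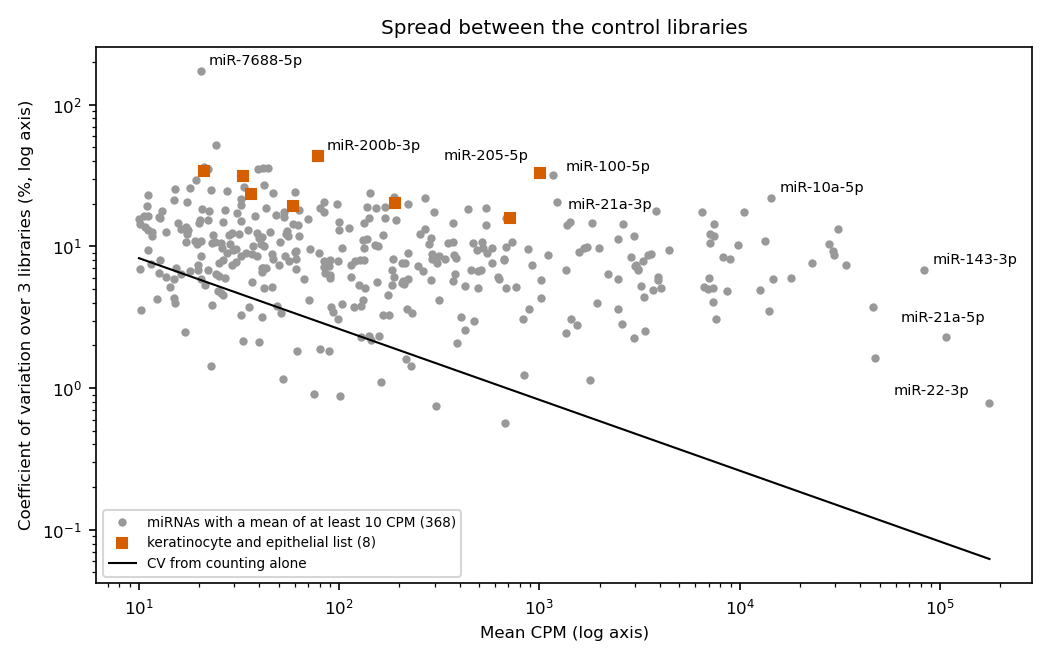
Coefficient of variation over the 3 control libraries against mean CPM for the 368 miRNAs of at least 10 CPM, both on log axes; squares are the 8 miRNAs of the keratinocyte and epithelial list at that level, and the line is the CV from counting alone at these depths. Most points lie above the line, and miR-7688-5p stands apart at 172%.

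Lists of miRNAs known from cell types of skin and other tissues were then summed. They were chosen with earlier results of these data known, so their sums describe the libraries and do not check the label independently. All 11 names of the fibroblast and mesenchymal list had at least 10 CPM, and they held 21.1% ± 0.15 of the counts. miR-143-3p and miR-10b-5p made up most of that sum, with miR-199a-3p and miR-199b-3p. miR-214-3p had 3420.0, 3258 and 3379 CPM and miR-145a-5p 397, 390 and 381 CPM. The sums of the lists of other cell types were far lower, although single members such as miR-205-5p and miR-182-5p stood above miR-145a-5p. Of the 6 names of pluripotent cells, miR-302a-3p, miR-302b-3p and miR-302d-3p were at 0, and miR-295-3p, with 20, 16 and 18 counts, was the only one with a count in every library. The list summed to 1.92, 1.16 and 0.923 CPM. miR-122-5p of hepatocytes had 5 counts in all libraries together, miR-124-3p of neurons 8 and miR-1a-3p of muscle 9.

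The 10 miRNAs of the keratinocyte and epithelial list were all detected in every library, and 8 had at least 10 CPM. Their sum was 2698, 1670 and 2075 CPM, or 0.270%, 0.167% and 0.208% of the counts. In bulk RNA a lower number of cells of a type and less RNA per cell cannot be told apart. Control 1 was the highest for 9 of the 10 and control 2 the lowest for 8. Over all 368 miRNAs of at least 10 CPM, control 1 was the highest for 123 and control 2 the lowest for 124. Some of the 10 names, such as miR-200b-3p and miR-200a-3p or miR-182-5p and miR-183-5p, lie within 10 kb of each other and are not independent. miR-205-5p, an epidermal miRNA, made up the largest part, followed by miR-182-5p with 773, 587 and 790.3 CPM, the single exception that was highest in control 3. miR-200b-3p had 117, 52.3 and 65.9 CPM, miR-141-3p 45.7, 29.0 and 34.0 CPM, miR-429-3p 44.0, 23.5 and 31.7 CPM, and miR-200c-3p 6.70, 5.47 and 4.76 CPM. Control 1 is thus the library with the highest epithelial levels and with the highest miR-21a-3p, miR-29b-3p and miR-20a-5p. The part of epithelial cells in those values was not tested.

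The leukocyte list went the other way, with 34.7, 59.0 and 66.6 CPM, lowest in control 1 for 6 of 6 names. Over all 368 miRNAs of at least 10 CPM, control 1 was the lowest for 139. Only 1 of the 6 leukocyte names, miR-142a-5p, is in that set, so the share is no close comparison for the others. Control 1 also had the fewest counts. The 6 names include both arms of miR-142a and of miR-511, and the latter had 7 and 2 counts in control 1. miR-142a-5p made up most of it, with 23.7, 43.7 and 50.4 CPM, whereas miR-223-3p of myeloid cells and miR-150-5p of lymphocytes were under 5 CPM in each library. The 2 endothelial names, the arms of miR-126a, summed to 115, 131 and 162 CPM and were lowest in control 1 as well. The erythroid list summed to 469, 551 and 543 CPM, nearly all of it miR-486a-5p and miR-486b-5p, which muscle also expresses, while miR-451a, the defining miRNA of red cells, had 2.68 ± 0.48 CPM. The muscle list summed to 345, 426 and 388 CPM, nearly all of it miR-133a-3p with 328, 407 and 370.5 CPM, while miR-206-3p had 3.83 ± 0.72 and miR-133b-3p 8.21 ± 0.92 CPM. The neuron and glia list summed to 96.8, 78.7 and 95.9 CPM, led by miR-138-5p with 62.7 ± 11.4 CPM. The melanocyte names miR-211-5p and miR-204-5p were at 3.91 ± 0.65 and 5.06 ± 1.29 CPM, and the endocrine names miR-375-3p and miR-7a-5p at 6.56 ± 1.79 and 4.32 ± 0.69 CPM.

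**Figure D5:**
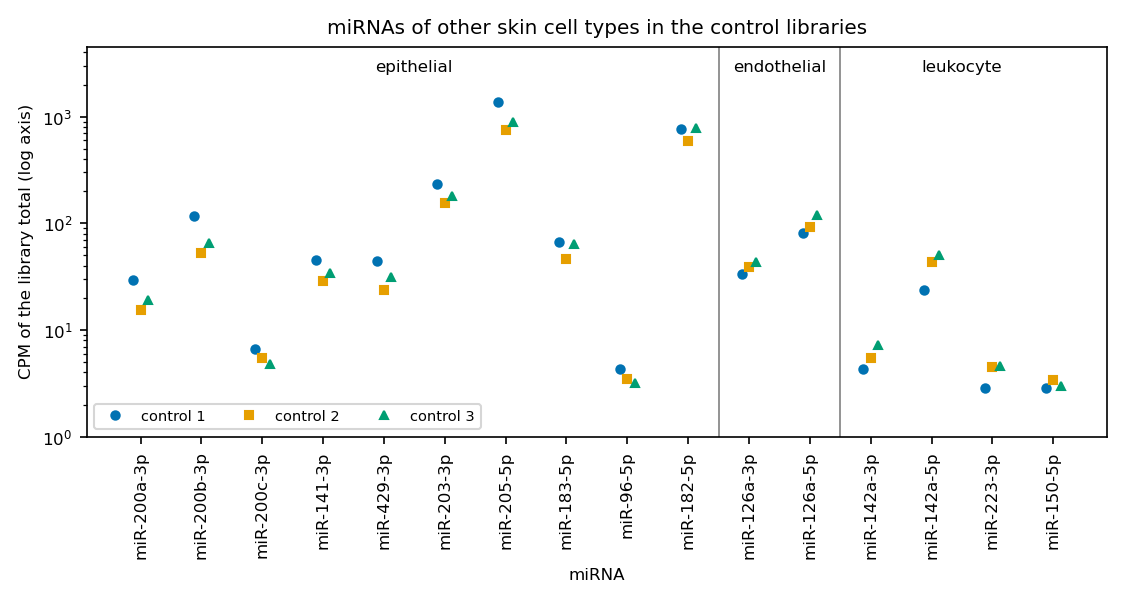
Levels of miRNAs known from epithelial, endothelial and leukocyte cells with a mean of at least 3 CPM in each control library, in CPM on a log axis; each point is 1 library. Control 1 is the highest for 9 of the 10 epithelial miRNAs and the lowest for each endothelial and leukocyte miRNA drawn. Over all 368 miRNAs of at least 10 CPM it is the highest for 123 and the lowest for 139. That set holds 8 of the epithelial miRNAs and, of the leukocyte miRNAs, only miR-142a-5p.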

How the data were processed

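The deposited files give unnormalized read counts for each mature miRNA, with 1 file per library. Per the submitters' processing notes, CASAVA 1.8, cutadapt, Bowtie, featureCounts and edgeR were used with the mm10 build. Their settings, the miRNA annotation release and the handling of reads that match several precursors were not given in the sources used here. Total RNA was extracted with Trizol, per the labels' protocols. No molecular identifiers are named, and adapter ligation does not take up all sequences equally, so a share is a share of reads.

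The 3 control libraries were grouped by their labels, and 0 columns lacked a sample. Counts were divided by the library total (CPM). Library pairs differed by a chi-square per degree of freedom of 102 to 134, so none was a copy of another. Seeds were bases 2 to 8 of the RefSeq mature sequence. Arms were paired by name, with copies of a precursor summed, and a stem needed 10 counts over both arms in every library. Hosts and positions came from GENCODE M21, in which 1847 names matched a precursor; only hosts on the same strand were kept. Counting CVs are Poisson values at the mean count. Scripts ran in Python 3.11.15 with pandas 2.3.3 and were tested on simulated data. TMM factors (edgeR 4.0.16, R 4.3.3) and DESeq2 1.42.0 size factors served as alternatives, and the former were 1.02, 1.00 and 0.984.

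No test was made, because a single group was described. The named miRNAs were the 30 most abundant and up to 4 members of each of the 15 largest families. Among stems of at least 1000 CPM they were the 5 most one-sided in each direction and the 8 most even, with any stem of at least 100 CPM whose higher arm changed. Among miRNAs of at least 100 CPM they were the 10 most and the 5 least variable, and the members of the cell type lists were added. Members, rule and lists were chosen with earlier results of these data known. Families give further members where a sentence completes the family.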

Additional observations from a re-analysis of the deposited data

How the results depend on the processing

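With the most abundant miRNA left out of the total, the share of the 5 most abundant was 38.7%, and with identical mature sequences summed it was 47.2%. Names with at least 10 counts in every library numbered 603, against 933 with any count. With only sequenced names in the total, the families of miR-22-3p, let-7i-5p, miR-21a-5p, miR-10b-5p and miR-199a-3p held 19.99%, 12.3%, 12.2%, 6.87% and 6.44%. A minimum of 1000 counts over both arms left 85 stems with a higher 5p arm and 69 with a higher 3p arm. Without the filter at 10 CPM the median CV was 28.7%. Counting each miRNA of at least 10 CPM once, 39.9% began with U. Each of these alternatives changes by its construction what is counted. The levels of the 30 most abundant miRNAs stayed within 1 SD under TMM factors and DESeq2 size factors (60 of 60 values). The TMM factors were 1.02, 1.00 and 0.984, and the size factors were rescaled to the mean library total. These means could therefore hardly move, and the outcome says little about stability. Leaving out 1 of 3 libraries cannot move a mean by 1 SD, so those values say nothing about stability. Depth limits miRNAs near the floor: 183 names had counts in 1 library only, of at most 29 counts. No paired analysis was possible because no groups were compared and no test was made.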

Other observations

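The chromosome 12 stretch from Meg3 to Mirg, an imprinted region from which many miRNAs are cut, carried 104 of the listed names, of which 72 had at least 10 CPM. Together they held 8.45%, 9.56% and 9.68% of the counts, lowest in control 1. miR-127-3p made up 33.4% of the sum, miR-411-5p 15.1%, miR-434-3p 8.08% and miR-541-5p 7.66%. Most of its leading miRNAs, such as miR-127-3p, miR-434-3p, miR-381-3p (3230.0, 3771 and 3798 CPM), miR-410-3p (3148, 3712 and 3631 CPM) and miR-136-3p (2882, 3184 and 3292 CPM), were lowest in control 1. miR-541-5p was not, with 7764, 6108 and 7337 CPM, highest in control 1. Nor was miR-409-3p, with 2748, 3159 and 2728 CPM, lowest in control 3. Less abundant members such as miR-494-3p (355, 253 and 286 CPM) and miR-369-3p (182, 125 and 151 CPM) were also highest in control 1. The split over all members of the region is not given here. Over all 368 miRNAs of at least 10 CPM, control 1 was the lowest for 139 and the highest for 123.

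miRNAs that lie within 10 kb of each other on a strand were often listed at unequal levels. Only stems with a single precursor were used here. In 23 such groups of several stems, the highest and the lowest stem of at least 10 CPM differed by a median of 11.1-fold, and by more than 10-fold in 14. The following pairs were chosen after their values were seen. miR-27b-3p was 48.1 ± 1.42 times as high as miR-23b-3p, and miR-27a-3p 2.90 ± 0.23 times as high as miR-23a-3p, although both pairs come from homologous groups of miR-23, miR-27 and miR-24. miR-24-3p, which both groups can give, had 658, 499 and 470 CPM, highest in control 1, and was lower than miR-24-2-5p, an arm of a single precursor, with 815, 859 and 814 CPM. miR-143-3p was 215 ± 11.3 times as high as its neighbour miR-145a-5p.

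Of 3 homologous groups that each join a miR-99 or miR-100, a let-7 and a miR-125 stem, the one on chromosome 17 is described through all its arms and the others only through arms with a single precursor, since miR-125b-5p, let-7a-5p and let-7c-5p can come from several. The group on chromosome 17 had miR-99b-5p at 6494, 7609 and 5342 CPM and let-7e-5p at 3131, 3129 and 2752 CPM. Its miR-125a-5p had 8564, 9766 and 8460 CPM. The other arms were miR-99b-3p (136, 134 and 126 CPM), let-7e-3p (46.0, 43.5 and 39.9 CPM) and miR-125a-3p (120, 123 and 114 CPM). Each arm of this group was lowest in control 3. In the group on chromosome 9, miR-100-5p and miR-100-3p (12.5, 12.3 and 9.91 CPM) were also lowest in control 3. So were let-7a-2-3p (2.49, 2.92 and 1.75 CPM, from 26, 48 and 36 counts) and miR-125b-1-3p (3632, 4573 and 3244 CPM). Over all 368 miRNAs of at least 10 CPM, control 3 was the lowest for 105 and the highest for 104. In the group on chromosome 16, miR-99a-5p (266, 290 and 313 CPM), miR-99a-3p (22.0, 16.7 and 22.1 CPM) and miR-125b-2-3p (236, 236 and 289 CPM) were each highest in control 3, and let-7c-1-3p (18.7, 21.2 and 19.0 CPM) was highest in control 2. These groups were singled out after the values were seen, and the difference between them was not tested.

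miR-7688-5p had 634, 3 and 2 counts in controls 1 to 3, or 60.7, 0.182 and 0.0971 CPM. It was the only miRNA with at least 5 CPM in a library and at least 5-fold above both others. Without control 1 it was at the floor of detection. Mir7688 is annotated on chr10:93433107-93433162.

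Names with high numbers, which were assigned later, contributed little. Of 785 names numbered 5000 and above, 210 had a count in every library and 8 had at least 10 CPM, and they held 0.0857% of the counts. Of 843 names numbered under 1000, 582 had a count in every library and they held 99.8%. Among miRNAs of the Hox clusters, miR-196a-5p had 1855, 1534 and 1803 CPM, miR-615-3p 664, 719 and 655 CPM, and miR-196b-5p 223, 177 and 265 CPM.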
